A study of Mus musculus with 2 samples.

Results

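The strongest distal accessible regions of the mouse embryonic heart are described here: 837 of the 98924 overlapping peak pairs of the series, and of the 53907 pairs that lay on autosomes more than 10 kb from every protein-coding transcription start site (TSS). They were chosen by their measured signal. A region is the overlap of a replicate 1 peak and a replicate 2 peak (1 bp or more) whose fold enrichment was at least 20 in both replicates, and distance to a TSS was taken from the midpoint of that overlap with the GENCODE M21 annotation of GRCm38/mm10. Fold enrichment is the value the authors' peak caller gave for each peak summit, that is, how many reads stacked up there relative to the mean over the genome (1 was added to each). Since it chose the regions, it is given as a description and supports nothing else. Of all distal pairs, 1.55% passed, against 40.1% of the 18955 pairs within 1 kb of a protein-coding TSS and 2.44% of the 23777 pairs in between.

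The data are 2 ATAC-seq replicates of hearts from wildtype (WT) embryos of the FVB strain at E11.5, dissected at 49 to 51 somites, each made from 2 pooled hearts. No other genotype, treatment or stage was measured, so no groups were compared, and whether both hearts of a replicate came from 1 litter is not given. Replicate 1 had 118027 peaks and replicate 2 had 114783. Whole hearts hold cardiomyocytes, endocardium, epicardium, mesenchyme and the blood inside the chambers, and a region open in few cells cannot be told apart from one that is weakly open in many.

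ATAC-seq reads mark DNA that is free of nucleosomes. Promoters are the most widely open elements of the genome, and many of them lie in CpG islands, stretches rich in CG dinucleotides that stay unmethylated and open in most cell types. Enhancers are distal elements that are open mainly in the cells that use them, where they hold clustered sites of lineage transcription factors. GATA4, GATA5 and GATA6 act in the heart and endocardium, while GATA1 acts in blood, where it binds together with TAL1 at part of an E-box placed at a set distance from the GATA site.

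The sequences below are 201 bases long, 100 on each side of the replicate 1 summit, and were read from the GRCm38 reference, a C57BL/6J genome, so FVB differences are not seen. The 4 highest regions whose 32-base words are all unique in the genome are shown first because the highest regions were mostly rich in CG dinucleotides. They lie at chr8:4677825-4678025, chr5:25529656-25529856, chr15:68363335-68363535 and chr1:7398010-7398210 (plus strand), and are named by the nearest protein-coding gene. Capitals mark the CG dinucleotides, which number 11, 12, 22 and 12 in that order.
Zfp958 region: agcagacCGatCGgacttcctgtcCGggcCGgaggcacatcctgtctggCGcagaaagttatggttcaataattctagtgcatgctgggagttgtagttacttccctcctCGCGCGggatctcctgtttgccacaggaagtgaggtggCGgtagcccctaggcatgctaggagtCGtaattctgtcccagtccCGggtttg
Cct8l1 region: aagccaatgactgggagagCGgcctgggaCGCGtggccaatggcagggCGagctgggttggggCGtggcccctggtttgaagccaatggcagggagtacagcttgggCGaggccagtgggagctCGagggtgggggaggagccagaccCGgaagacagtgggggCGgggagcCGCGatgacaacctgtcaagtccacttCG
Zfat region: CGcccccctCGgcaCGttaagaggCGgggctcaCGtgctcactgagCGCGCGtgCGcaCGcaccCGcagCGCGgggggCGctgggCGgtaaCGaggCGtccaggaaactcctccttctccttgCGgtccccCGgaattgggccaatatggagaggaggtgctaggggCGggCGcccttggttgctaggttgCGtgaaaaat
Pcmtd1 region: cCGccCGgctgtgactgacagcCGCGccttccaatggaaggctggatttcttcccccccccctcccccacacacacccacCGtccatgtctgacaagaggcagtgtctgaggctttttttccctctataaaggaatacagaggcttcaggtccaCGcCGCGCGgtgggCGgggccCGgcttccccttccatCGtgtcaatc

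Of the 837 regions, 281 held the GATA letters AGATAA, most of them outside CpG-dense sequence, and 54 held CTG exactly 8 bases before them. The 3 highest of these, picked after the values were seen, lie near Npvf (chr6:50890909-50891109, minus strand), Gse1 (chr8:120371810-120372010, plus strand) and Vwc2l (chr1:70902394-70902594, minus strand). Capitals mark CTG and AGATAA, each read on the strand that holds them.
Npvf region: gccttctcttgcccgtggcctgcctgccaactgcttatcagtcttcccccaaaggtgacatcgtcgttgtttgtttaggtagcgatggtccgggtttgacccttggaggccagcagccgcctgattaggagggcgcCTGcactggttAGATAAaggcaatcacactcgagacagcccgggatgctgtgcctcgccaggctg
Gse1 region: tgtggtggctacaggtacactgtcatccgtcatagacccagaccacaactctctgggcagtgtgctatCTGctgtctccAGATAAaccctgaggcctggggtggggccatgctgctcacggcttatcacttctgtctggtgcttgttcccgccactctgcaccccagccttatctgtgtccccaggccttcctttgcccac
Vwc2l region: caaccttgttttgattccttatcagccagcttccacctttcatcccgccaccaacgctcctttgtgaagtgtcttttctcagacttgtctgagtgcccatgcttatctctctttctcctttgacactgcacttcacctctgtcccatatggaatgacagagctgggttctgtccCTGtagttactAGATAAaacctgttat

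The highest region near a gene of 4 gene lists is shown with AGATAA, or TTATCT on the other strand, in capitals (plus strand). These are the regions of Zfpm1 (chr8:122294334-122294534) among cardiac transcription factors, Xirp1 (chr9:120002085-120002285) among contractile genes, Ryr2 (chr13:12133616-12133816) among calcium handling genes and Lmo2 (chr2:103893885-103894085) among endothelial genes. The windows of Zfpm1 and Lmo2 hold 1 match each and those of Xirp1 and Ryr2 hold none.
Zfpm1 region: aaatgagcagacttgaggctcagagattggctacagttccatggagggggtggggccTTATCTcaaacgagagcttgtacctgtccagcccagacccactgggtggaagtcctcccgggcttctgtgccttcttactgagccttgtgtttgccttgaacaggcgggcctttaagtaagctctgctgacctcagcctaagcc
Xirp1 region: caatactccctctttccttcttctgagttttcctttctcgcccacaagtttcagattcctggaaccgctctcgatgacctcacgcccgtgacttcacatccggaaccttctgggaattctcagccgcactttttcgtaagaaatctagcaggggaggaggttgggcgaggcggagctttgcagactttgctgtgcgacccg
Ryr2 region: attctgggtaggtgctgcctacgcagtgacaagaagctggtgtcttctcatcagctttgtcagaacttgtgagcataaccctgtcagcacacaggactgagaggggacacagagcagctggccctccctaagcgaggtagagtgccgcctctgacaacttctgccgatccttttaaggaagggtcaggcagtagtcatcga
Lmo2 region: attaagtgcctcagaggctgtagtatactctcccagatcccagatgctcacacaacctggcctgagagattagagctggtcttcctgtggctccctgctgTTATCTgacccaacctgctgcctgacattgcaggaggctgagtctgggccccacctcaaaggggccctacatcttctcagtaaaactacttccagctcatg

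The 2 highest regions with a match to the CTCF core (CCNNNAGNNGGC, in capitals) lie near Ccne1 (chr7:38084996-38085196, plus strand) and Cp (chr3:19894675-19894875, minus strand). They are shown because CTCF sites were scarce in this set, as described further down.
Ccne1 region: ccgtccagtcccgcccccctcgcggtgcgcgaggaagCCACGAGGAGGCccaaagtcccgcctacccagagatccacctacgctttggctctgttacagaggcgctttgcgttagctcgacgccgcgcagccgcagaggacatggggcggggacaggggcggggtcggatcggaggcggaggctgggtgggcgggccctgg
Cp region: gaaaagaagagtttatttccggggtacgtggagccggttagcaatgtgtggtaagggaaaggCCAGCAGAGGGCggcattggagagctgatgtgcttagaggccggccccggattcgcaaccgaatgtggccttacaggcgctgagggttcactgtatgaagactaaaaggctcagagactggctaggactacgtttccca

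Fold enrichment of the 837 regions ran from 20.1 to 55.7 in replicate 1 (median 25.5) and from 20.1 to 53.5 in replicate 2 (median 25.6). In both replicates all 837 values were whole multiples of 1 step, 0.272 in replicate 1 and 0.251 in replicate 2 (within 0.05 of a step), and with the caller's definition 1 step is 1 read. The stacks at the summits thus held 73 to 204 reads in replicate 1 and 79 to 212 in replicate 2. Ties are common at this resolution: 14 regions shared the lowest passing value of 20.1, and 24 distal pairs shared the next lower value of 19.9. Listed in chromosome order, 3 regions just inside the limit lay near Tnp1 (20.1 and 25.1 in replicates 1 and 2), Ppp1r15b (20.1 and 23.9) and Rgs2 (20.1 and 20.1). Just outside were those near Slc30a1 (20.4 and 19.9), Hace1 (20.4 and 19.9) and Gja1, the gap junction gene connexin 43 (22.0 and 19.9). A further 455 distal pairs reached 20 in replicate 1 only and 412 in replicate 2 only.

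The values of both replicates lay within 1.25-fold of each other in 92.1% of the 837 regions, and the median ratio of replicate 1 to replicate 2 was 0.995. The limit was set on these same values in both replicates, so this is a description of what it chose. Among the 53070 other distal pairs 57.6% lay within 1.25-fold, and the median ratio was 1.137. Summits were a median of 20 bp apart in the strong regions and 50 bp in the others, also a description, since the strong stacks were chosen for their height. Of the 837, 143 reached 30 in both replicates, 30 reached 40 and 6 reached 50.

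**Figure D1:**
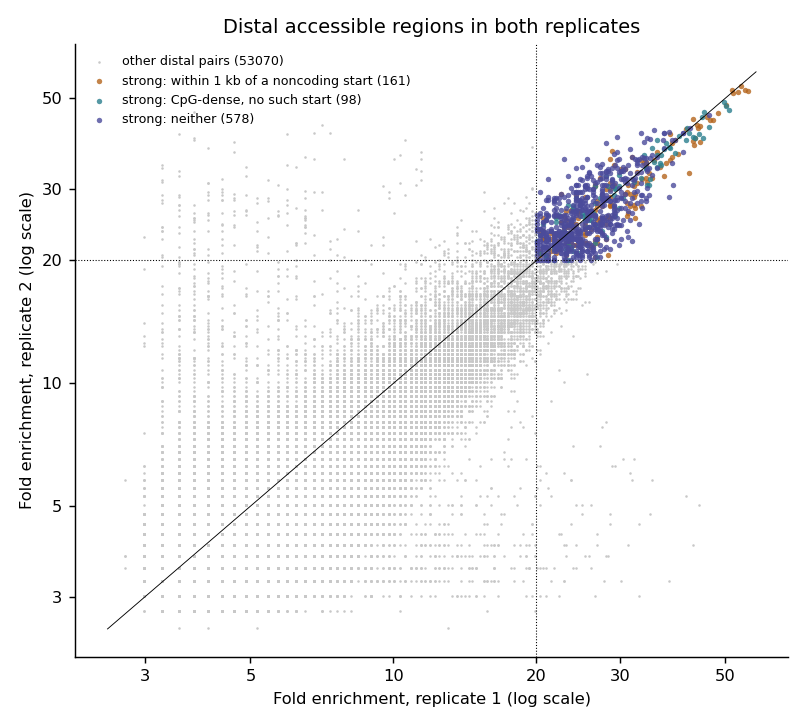
Fold enrichment in replicate 1 (x axis) and replicate 2 (y axis), both on log scales, for each distal pair; dotted lines mark the limit of 20 and the solid line equal values. The 837 strong regions (coloured by kind) run from the limit up to 55.7 and 53.5, and the highest of them are mostly those within 1 kb of a noncoding start or CpG-dense.

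The regions fell into 3 kinds by noncoding transcript starts and sequence. The choice used protein-coding starts of the same annotation, but neither of these. In 161 (19.2%), a transcript of a noncoding gene started within 1 kb of the midpoint. Another 98 (11.7%) had no such start but a CpG-dense summit window, meaning at least 50% G and C and an observed to expected CpG ratio of at least 0.6. The other 578 (69.1%) were neither. Among the weaker distal pairs the same kinds made up 4.16%, 2.095% and 93.7%, so regions of the first 2 kinds took a larger part of the strong set. Of the 161, 87 were CpG-dense as well.

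These shares moved steadily with strength. The CpG-dense share, whatever the start, was 1.58% where the lower of both fold enrichments was under 5, 2.75% from 5 to 10, 5.72% from 10 to 15, 8.79% from 15 to 20 and 22.1% in the strong regions (95% Wilson interval 19.4% to 25.0%; such intervals cover counting only, and regions are not independent). The share near a noncoding start rose likewise from 3.54% through 4.28%, 6.33% and 8.02% to 19.2% (16.7% to 22.0%). Strong promoter regions, those within 1 kb of a protein-coding TSS that reached 20 in both replicates, were CpG-dense in 87.0% of 7594 cases. Within the strong distal set the same order went on: regions that were neither made up 76.8% of the 483 from 20 to 25, 69.7% of the 211 from 25 to 30, 49.6% of the 113 from 30 to 40 and 4 of the 30 from 40 up.

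**Figure D2:**
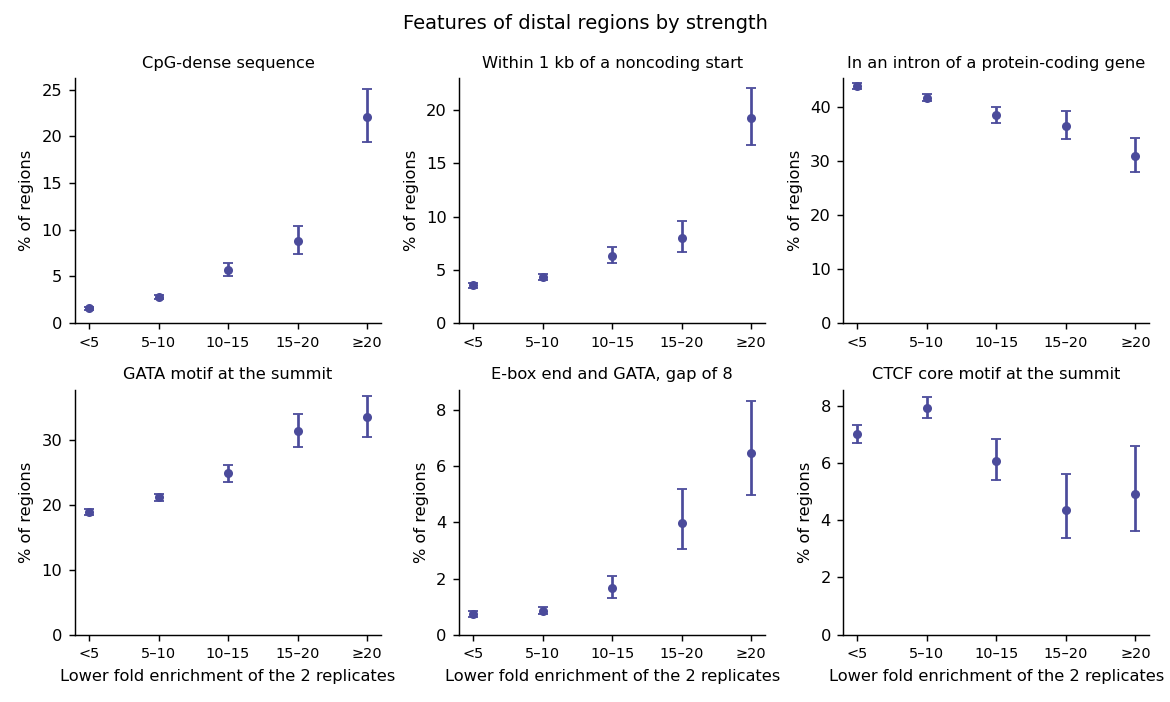
Share of distal regions (y axes, %) with each feature in 5 classes of the lower fold enrichment of the 2 replicates (x axes); points are shares and bars 95% Wilson intervals. From the weakest class to the strong regions, CpG-dense sequence goes from 1.58% to 22.1%, noncoding starts from 3.54% to 19.2%, introns from 43.8% to 30.9%, the GATA motif from 18.9% to 33.6%, CTG (labelled E-box end) 8 bases before GATA from 0.731% to 6.45% and the CTCF core from 6.999% to 4.90%, with its highest share, 7.92%, in the class from 5 to 10.

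Ranked by the mean of both replicates, 8 of the first 12 regions lay within 1 kb of a noncoding start, 3 were CpG-dense without one, and 1 was neither. None of the 12 windows held AGATAA, a count of 0 that allows a share of up to 25%. The highest, at chr8:4677122-4679375, had 55.7 in replicate 1 and 52.0 in replicate 2 and lay 52.4 kb from Zfp958, a zinc finger gene, but 116 bp from the start of the noncoding gene Gm7461. Next came chr5:25528804-25530548 (54.1 and 53.5), 337 bp from the lincRNA 1700096K18Rik, and chr15:68361206-68364025 (54.9 and 52.3), 560 bp from the lincRNA Gm20732. These are distal only with respect to protein-coding genes.

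Another 3 of these 8 regions are chr1:7396823-7398968 (53.2 and 51.8; Gm26901 at 27 bp), chr1:23255701-23257645 (51.6 and 52.3; Gm6420 at 266 bp) and chr13:111724491-111726282 (50.3 and 48.0; the antisense gene Gm15287 at 130 bp). The regions chr5:151367683-151369896 (51.9 and 51.5; 1700028E10Rik at 72 bp) and chr13:48545071-48547002 (48.3 and 46.0; 6720427I07Rik at 463 bp) belong here too.

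The 3 CpG-dense regions of the 12 without such a start include chr14:115040009-115042907 (49.7 and 49.0), whose midpoint lay 1421 bp from the start of Mir17hg, the host transcript of the miR-17 to miR-92 cluster, which promotes proliferation. This region is 2899 bp long and contains that start, so it lacks one only by the rule of 1 kb from the midpoint. The others are chr15:85634225-85635451 (50.3 and 47.8), 52.4 kb from the Wnt ligand gene Wnt7b, and chr8:3220241-3222083 (50.8 and 46.8), in an intron of Insr, the insulin receptor gene. The last of the 12, chr18:5989395-5990424 (46.2 and 45.5), was neither CpG-dense nor near a start, and lay in intergenic DNA 44.8 kb from Arhgap12.

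The noncoding starts belonged to lincRNAs in 72 of the 161 regions, to processed transcripts in 26, to the provisional class TEC in 18, to antisense genes in 11 and to processed pseudogenes in 8. A second annotation found further starts: 34 regions (4.06%, against 0.757% of weaker distal pairs) lay within 1 kb of a RefSeq mRNA start where GENCODE M21 has no protein-coding start. Examples, named after their values were seen, are Zswim6 (12 bp; 47.0 and 44.2), Prdm2 (52 bp; 44.5 and 45.0) and Pkd2l1 (215 bp; 41.8 and 41.0). Of the 34, 16 were also at a noncoding start, 5 were CpG-dense without one and 13 were neither. Chromosome 17 had the largest share of its distal pairs in the strong set, 50 of 2014 or 2.48%, and chromosomes 14, 18 and 10 had the lowest, from 1.13% to 1.14%.

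By position, 405 regions (48.4%) were intergenic, 259 (30.9%) lay in introns of protein-coding genes, 155 (18.5%) in noncoding genes, 12 in coding exons and 6 in other exons. Weaker distal pairs were intronic in 42.4% of cases, so the intronic share was lower in the strong set, whose interval was 27.9% to 34.2%. The kinds differed in this respect: 9.32% of regions at a noncoding start and 9.18% of the other CpG-dense ones were intronic, against 40.7% of the 578 that were neither (interval 36.7% to 44.7%). The 49749 weaker pairs of that last kind gave 43.6%, inside that interval. In the first 2 kinds the weaker pairs were intronic more often, in 22.8% and 23.6% of cases. In 216 of the 259 intronic regions (83.4%), the nearest TSS belonged to the gene that held the intron.

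Nearest TSSs were a median of 36.5 kb away, against 46.4 kb for the weaker distal pairs, and 162 regions (19.4%) were more than 100 kb away, against 28.9%. The farthest lay 2081 kb from a TSS. Regions sat upstream of the nearest TSS in 403 cases (48.1%) and downstream in 434. A strong region had a median of 5 other distal pairs of any strength within 50 kb, against 4 for weaker pairs.

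AGATAA, the core of the GATA site, was found on either strand in 281 of the 837 summit windows (33.6%, interval 30.5% to 36.8%). The share was 18.9%, 21.2%, 24.9% and 31.5% in the 4 weaker classes and 17.2% over all autosomal pairs, and was 2.29% in strong promoter regions. Nearly all of it came from the regions that were neither CpG-dense nor at a start: 255 of 578 (44.1%), against 20.99% of weaker pairs of the same kind. Regions at a noncoding start had 9.94%, below the 16.9% of weaker pairs of that kind, and the other CpG-dense regions had 10.2%, against 10.1%. Matches piled up at the summit, with 2.51 per kb in the central 50 bp and 0.836 and 0.669 per kb in the 50 bp centred 500 bp to the left and right of it, against 1.31, 0.666 and 0.720 per kb in weaker distal pairs.

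After the GATA values were seen, CTG in front of AGATAA was searched at every gap from 0 to 20 bases, which is 21 gaps, because TAL1 and GATA1 are known to bind such an arrangement in red blood cell precursors. A gap of 8 stood out. It was found in 54 of the 837 windows (6.45%, interval 4.98% to 8.32%), of which 53 were among the 578 regions that were neither (9.17%). The gap with the next highest share in those 578 was 7, with 5.02%, and the median of the other 20 gaps was 1.82%. Weaker pairs of the same kind had 0.939% at a gap of 8 and a median of 0.638% at the others.

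The share with this arrangement was 0.731%, 0.843%, 1.66% and 3.97% in the 4 weaker classes and 6.45% in the strong regions. It was 5.59% of the 143 regions that reached 30 in both replicates, of which 60 were neither CpG-dense nor at a start. Within that kind it was 9.16% from 20 to 25 and 8.16% from 25 to 30, and 7 of the 56 regions from 30 to 40 and 0 of the 4 from 40 up held it. Over all autosomal pairs it was 0.911%, and in strong promoter regions 0.184%. The arrangement is a match of letters and says nothing by itself of which GATA factor was bound. No test was made, since the gap was picked from the same windows.

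**Figure D3:**
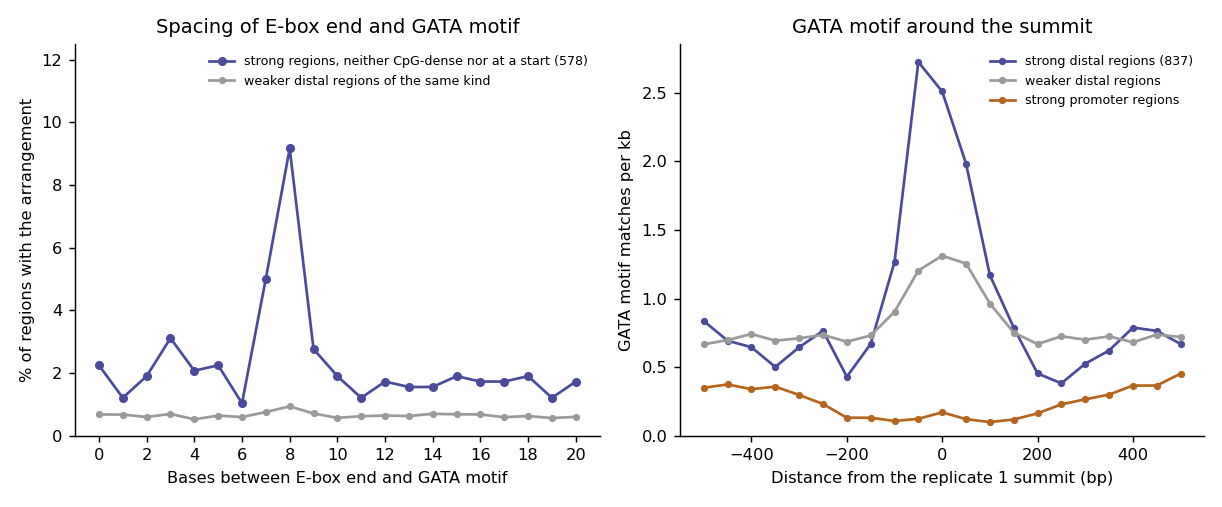
Left, share of regions (y axis, %) with CTG (labelled E-box end) a given number of bases (x axis) before the GATA letters, for the 578 strong regions that were neither CpG-dense nor at a noncoding start and for weaker distal regions of that kind; the strong set peaks at a gap of 8 with 9.17%. Right, GATA matches per kb (y axis) in 50 bp bins around the replicate 1 summit (x axis, bp); strong distal regions have 2.51 per kb at the centre, weaker ones 1.31, and strong promoter regions are the lowest curve.

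Over all 837 windows, the TEAD, NKX2-5 and HAND motifs were less common than in weaker pairs, and those of other cardiac factors were near their background. GGAATG, the TEAD motif, was in 10.3% of the strong windows and 17.0% of the weaker ones, CAAGTG (NKX2-5) in 11.9% and 14.8%, CATCTG (the HAND E-box) in 15.3% and 18.04%, TGACAG (MEIS) in 22.1% and 24.8%, and the MEF2 motif in 3.58% and 4.80%. AGGTGTG, the T-box motif, had 3.94% and 3.21%. The MEF2 and T-box shares rest on only 30 and 33 strong windows, so these small differences are not read as results. Within the 578 regions that were neither, TEAD was lower (10.7% against 17.2%). NKX2-5 (14.7% against 14.98%), HAND (17.6% against 18.2%) and MEIS (26.1% against 25.2%) were near their background, MEIS now slightly above it. MEF2 (3.98% against 4.88%), the SRF CArG box (0.865% against 1.39%) and T-box (4.15% against 3.24%) were in only 23, 5 and 24 of these windows, too few to read a difference. The AP-1 motif TGANTCA was in 13.3% of the 578, against 9.79%.

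Promoter motifs were most common in the CpG-dense and start kinds. GGGCGG, the SP/KLF box, was in 47.2% of the regions at a noncoding start and 61.2% of the other CpG-dense regions, against 13.5% of those that were neither. Weaker pairs of the same kinds had 12.1%, 30.9% and 5.34%, so the box was more common in the strong regions of every kind. CCGGAAG, an ETS site common in promoters, was in 11.8%, 6.12% and 1.04% in the same order (1.99%, 4.05% and 1.17% of weaker pairs), and CCAAT (NFY) in 35.4%, 31.6% and 23.5% (18.8%, 15.4% and 20.5%). The CTCF core was in 41 windows (4.90%, interval 3.63% to 6.58%), against 7.22% of weaker pairs and 10.9% of strong promoter regions. The Ccne1 region (45.1 and 46.3) and the Cp region (44.3 and 39.0) are the highest with such a match, the first CpG-dense and the second 259 bp from the start of the lincRNA 4632415L05Rik.

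The replicates leaned apart by motif. In regions with AGATAA, fold enrichment was higher in replicate 2 in 205 of 281 (73.0%; median ratio of replicate 2 to replicate 1 1.07), and with the gap of 8 in 45 of 54 (83.3%; 1.118). Without AGATAA it was higher in replicate 2 in 233 of 556 (41.9%; 0.974), and at noncoding starts in 71 of 161 (44.1%). Weaker regions, which the limit did not choose, differed in the same direction. Where the lower fold enrichment was from 10 to 20, 67.2% of the 122 distal pairs with the gap of 8 were higher in replicate 2, as were 38.0% of the 1462 with AGATAA and 28.8% of the 4063 without it. With 2 replicates this difference between libraries was not tested.

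**Figure D4:**
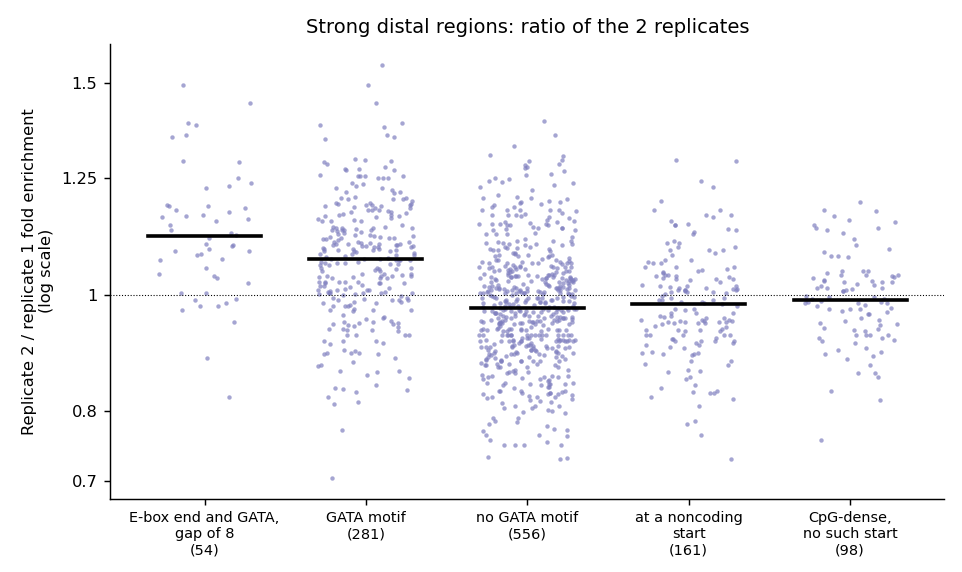
Ratio of fold enrichment in replicate 2 to replicate 1 (y axis, log scale) for strong distal regions, 1 point each, in 5 overlapping sets (x axis, number of regions in brackets); bars are medians and the dotted line marks equal values. The medians are 1.118 with CTG (labelled E-box end) and GATA at a gap of 8, 1.07 with the GATA motif and 0.974 without it.

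Promoters of marker genes were read as a check of the labelled tissue. All 12 cardiac markers had a peak in both replicates within 1 kb of a TSS, from 5.43 to 35.6 in replicate 1, and so did all 5 endothelial and all 4 epicardial markers. Of the blood markers, 3 are given here and each had one too: Klf1, an erythroid transcription factor, had 15.5 and 26.6 in replicates 1 and 2, Hba-a1 (alpha globin) 6.79 and 6.54, and Spi1 (the myeloid factor PU.1) 5.16 and 4.27. Of 9 genes of other tissues, 6 also had one, with Pax6 at 22.0 and 18.4, so a promoter peak alone did not separate tissues. Klf1 was 1.72 times higher in replicate 2, while 11 of the 12 cardiac markers were lower there, among them Ttn (15.2 and 10.1) and Myl7 (16.6 and 11.8), and so were all 5 endothelial markers, Hba-a1 and Spi1. Of the 4 epicardial markers, 2 were higher in replicate 2. Lower values in replicate 2 were common among weaker distal pairs, with replicate 1 the higher in 37418 of the 53070. Strong promoter regions did not share this: replicate 2 was the higher in 47.1% of the 7594, with a median ratio of replicate 2 to replicate 1 of 0.994. The part of these differences in the lean of the GATA regions was not tested.

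The 837 regions had 718 distinct nearest genes, and 628 of these (87.5%) had an accessible promoter shared by both replicates. The genes nearest to weaker distal pairs had one in 81.6% of cases, but those nearest to pairs from 15 to 20, just under the limit, had one in 87.9%. Where present, the promoter's mean fold enrichment was a median of 28.1, against 24.3 for all weaker pairs and 25.9 for those from 15 to 20. Of the 718 genes, 623 had 1 strong region, 75 had 2, 16 had 3 and 4 had 4. The nearest gene is a label by position, and whether a region acts on it was not measured.

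The 4 genes with 4 regions were Arid1b, Gse1, Marcks and Pim1. Around Arid1b, a subunit gene of the SWI/SNF chromatin remodeller, regions lay 85.9 kb upstream (35.9 and 39.5) and 58.7 kb (33.1 and 32.9), 110 kb (22.0 and 21.4) and 149 kb (44.8 and 39.97) downstream. The outermost 2 were CpG-dense and the one at 58.7 kb held AGATAA. Around Gse1, the highest region, 116 kb upstream of the nearest start (38.6 and 39.5), held the GATA arrangement, and the others had 28.0 and 30.7, 23.4 and 25.4, and 23.4 and 24.6. Around Marcks, which encodes a protein kinase C substrate, 3 of 4 regions held AGATAA, with the highest 93.6 kb upstream (33.7 and 39.0) and a pair 482 kb and 484 kb upstream (22.8 and 24.1, and 28.8 and 31.2). Gpc5, a glypican gene, is the first of the 16 genes with 3 regions by its highest value and is nearest to the Mir17hg region.

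Most regions stood alone. When regions up to 50 kb apart were linked, 666 were single, 64 pairs, 13 groups of 3 and 1 group of 4 formed, and 171 regions (20.4%) had another within 50 kb. The regions came from 837 replicate 1 peaks but 835 replicate 2 peaks, so a few share a replicate 2 peak and count as neighbours. The next 837 distal pairs in order of strength gave 103 (12.3%) when linked among themselves in the same way. Ties among groups of 3 were broken by mean fold enrichment.

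The group of 4 lay upstream of Pim1, which encodes a kinase that supports survival of blood and other cells. Its regions lay 57.1, 53.5, 46.8 and 42.7 kb from the TSS, all inside a noncoding gene, within 14.3 kb of each other. In replicate 1 they had 21.5, 23.6, 25.0 and 25.3, and in replicate 2 23.4, 22.1, 31.4 and 30.7. The 2 nearer to Pim1 were the higher ones in both replicates.

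Upstream of Chd2, a chromatin remodeller gene, 3 regions spanned 59.9 kb with 43.5, 38.0 and 33.7 in replicate 1 and 43.0, 28.7 and 36.2 in replicate 2. Among the stearoyl-CoA desaturase genes Scd2, Scd3 and Scd4, 3 regions had 41.8, 38.3 and 26.6 in replicate 1 and 41.0, 37.7 and 22.6 in replicate 2, and the first is the one 215 bp from the RefSeq start of Pkd2l1. Neither group held AGATAA in any window. Around Btg2, an antiproliferative gene, and Chit1, a chitinase gene, 3 regions had 25.8, 36.4 and 32.3 in replicate 1 and 32.7, 34.7 and 25.4 in replicate 2. Downstream of Ackr3, a chemokine scavenger receptor gene, 3 regions had 30.4, 31.5 and 25.5 in replicate 1 and 33.2, 27.7 and 30.2 in replicate 2, and 2 of them held AGATAA. Its span of 49.2 kb held 22 distal pairs of any strength, while the 14.3 kb of the Pim1 group held 11.

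**Figure D5:**
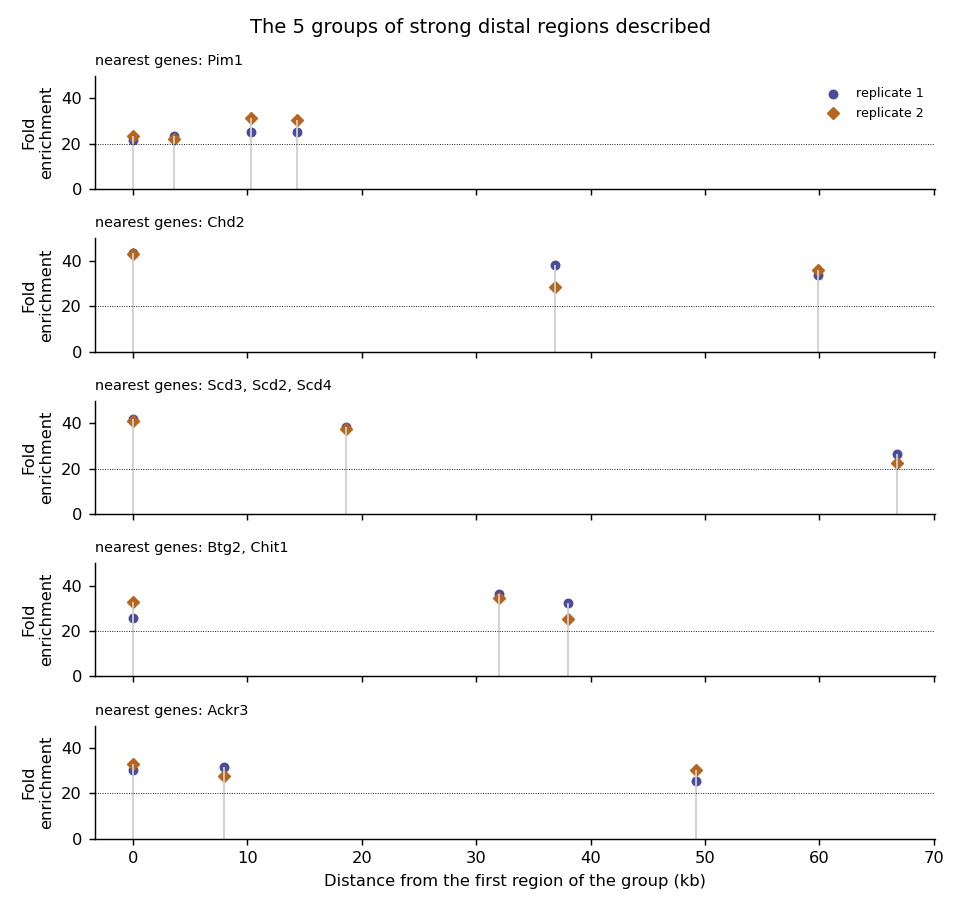
Fold enrichment (y axes) of each strong region in replicate 1 (circles) and replicate 2 (diamonds) in the 5 linked groups described, placed by distance from the first region of the group (x axis, kb); dotted lines mark the limit of 20. The 4 regions near Pim1 span 14.3 kb, while the groups of 3 span up to 66.8 kb.

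Of 506 distal pairs nearest to 30 cardiac transcription factor genes, 9 (1.78%) were strong, close to the 1.55% of all distal pairs. Zfpm1, the cofactor FOG1 of GATA factors in blood and heart, had 2, one 12.3 kb downstream (30.2 and 31.7) and one 10.4 kb upstream of the nearest of its TSSs (20.9 and 22.4), both in introns and both with AGATAA. Mef2c, a muscle transcription factor gene, had 3, of which the highest lay 159 kb upstream (26.3 and 29.9). Hey1, a Notch target repressor, had 2 CpG-dense regions 50.5 kb (27.4 and 23.6) and 99.97 kb (23.6 and 24.6) upstream. Irx4 and Hand2 had 1 each.

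Contractile genes had 2 of 95 (2.11%), near Xirp1, an actin-binding protein gene of cell junctions (26.3 and 26.1), and Myl3, a ventricular myosin light chain gene (22.3 and 25.9), both CpG-dense. Calcium handling and ion channel genes had 3 of 219 (1.37%). These lay near Ryr2, the calcium release channel gene (24.2 and 23.4), Pln, which encodes the calcium pump inhibitor phospholamban (24.4 and 21.9), and 708 kb from the potassium channel gene Kcnj2 (21.2 and 22.6). The Xirp1 and Pln regions lay in introns of other genes, Cx3cr1 and Cep85l. All 3 shares rest on so few regions that their intervals include 1.55%.

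Growth factor signalling genes had 5 of 464 (1.08%). The inhibitory SMAD genes Smad6 and Smad7 had the highest, 23.3 kb upstream of Smad6 (34.8 and 35.7) and 128 kb downstream of Smad7 (34.0 and 33.7). The latter lay in an intron of another gene, Ctif. The Smad7 region and that of Bmp2, 122 kb upstream (22.3 and 25.6), held the GATA arrangement. Nrg1, a ligand needed for trabeculation, had a CpG-dense region (25.5 and 24.1). Endothelial genes had 4 of 211 (1.90%): Lmo2, a bridging factor of blood and endothelium, 64.0 kb upstream (29.1 and 36.5) and 61.4 kb upstream (29.6 and 26.6), Sox17 (32.1 and 31.2) and Emcn, the endomucin gene (27.4 and 23.4). Epicardial and mesenchymal genes had 1 of 211 (0.474%), near Sema3d (24.4 and 20.6), and cytoskeletal genes 2 of 99 (2.02%), near Itgb1 (31.0 and 25.6) and Actb (20.6 and 24.9).

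Blood genes had the largest share, 4 of 68 distal pairs (5.88%, interval 2.31% to 14.2%), at 4 of the 5 listed genes that had a distal pair at all. Their highest region lay 12.7 kb upstream of Hbb-y, an embryonic beta-like globin gene whose locus control region lies on that side (28.0 and 32.2). Others lay near Runx1 (28.2 and 28.4), a regulator of blood stem cells, Ptprc (28.2 and 25.6), which encodes the leukocyte antigen CD45 and lay 217 kb away, and Ikzf1 (22.8 and 28.7), a lymphoid and erythroid regulator. AGATAA was in the windows of Runx1 and Ikzf1. None of 55 distal pairs near neural genes was strong, a count of 0 that allows a share of up to 5.45%, and none of 16 near skeletal muscle and liver genes, which allows up to 18.8%.

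A list of 34 erythroid genes was added after the GATA arrangement was seen. Of 143 distal pairs nearest to them, 3 (2.098%) were strong, near Sptb, the red cell spectrin gene (20.1 and 24.6), Bcl2l1, a survival gene of erythroid cells (22.8 and 22.9), and Slc11a2, an iron transporter gene (20.9 and 22.9). That share is near the 1.55% of all distal pairs, and the regions of Sptb and Bcl2l1 held the GATA arrangement.

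Most windows were unique in the genome. In 771 of the 837 windows (92.1%) every 32-base word was unique in the genome, against 91.9% of weaker distal windows, and 37 (4.42%) were under 90% unique, against 4.58%. At noncoding starts 21 of 161 were under 90%. No window shared a 32-base word with mitochondrial DNA, a frequent by-product of ATAC-seq libraries, and a count of 0 allows a share of up to 0.358%.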

How the data were processed

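Per the paper's methods and the submitters' processing notes, the authors trimmed single-end 50-base reads with Trim Galore 0.6.6 and Cutadapt, aligned them to GRCm38/mm10 with Bowtie2 2.4.2, used SAMtools 1.12 to drop duplicate and poorly mapped reads, and ran the MACS2 peak caller on each replicate by itself without a local background. The deposited fold enrichment is a ratio at the summit, both deposited −log10 columns (p-value and q-value) come from MACS2, and the deposited score column is 10 times −log10 q, within 1. The lists hold no library depth, so precision is known only through the steps of the fold enrichment. Removal of multiply mapping reads lowers signal in repeats.

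Every overlapping peak pair on autosomes was annotated with GENCODE M21, RefSeq and the GRCm38 sequence. Of 17 motifs, both strands were searched in the 201-base window, and TTGGCNNNN (NFI) can overlap CCAAT. The regions, gene lists, motifs and named items (12 highest regions, 3 on each side of the limit, 5 linked groups, 5 genes with most regions, up to 3 genes per list, to which Irx4, Hand2, Bmp2 and Ikzf1 were added after their values were seen) were chosen with earlier results of these data known. Windows on protein-coding exons and on chromosome 18 were not printed, and 1 blood marker is not reported here. No test was made, since the regions were chosen on their signal and 1 group was measured. The overlap, distance, motif and word-counting code was tested on simulated data. Tools were Numba 0.67.0, SciPy 1.17.1, pandas 2.3.3, NumPy 2.4.6 and Matplotlib 3.10.9 in Python 3.11.15. Alternatives changed the limit, replicate, overlap, q-value, distance, annotation, sequence uniqueness, window and linking distance.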

Additional observations from a re-analysis of the deposited data

Results flagged for a closer look

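The X chromosome was left out of the set because the regions were defined on autosomes. It held signal of the same strength, with 25 of its 1154 distal pairs at a fold enrichment of at least 20 in both replicates. These are values in data the descriptions above do not use, with no control samples to set them against.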

How the results depend on the processing

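A limit of 15 gave 2146 regions, 1593 nearest genes, 34.3% intronic, 14.0% CpG-dense, 12.4% at a noncoding start, 30.4% with another region within 50 kb and 4.94% with CTG 8 bases before AGATAA. A limit of 30 gave 143 regions, 135 genes, 22.4% intronic, 44.1% CpG-dense, 33.6% at a noncoding start, 6.99% with another within 50 kb, 24.5% with AGATAA and 90.4% of nearest genes with a shared promoter peak. A distance of more than 10 kb from starts of every gene type gave 500 regions, 448 genes, 41.2% intronic, 11.2% CpG-dense, 0% at a noncoding start by construction, 15% with another within 50 kb, 3.4% with the CTCF core, 42.4% with AGATAA, 9% with the CTG arrangement and 90.4% of genes with a promoter peak. A mean of at least 20 gave 19.0% CpG-dense, 16.3% at a noncoding start and 26.2% with another within 50 kb. Distances of more than 5 kb and 20 kb gave medians of 25.5 and 51.6 kb, 34.5% and 27.0% intronic, and the latter 17.4% with another within 50 kb. Linking distances of 20 and 100 kb gave 11.47% and 26.3%. Windows of 50 and 150 bp on each side gave 1.91% and 8.48% with the CTCF core (3.97% and 9.58% in weaker pairs) and 21.7% and 38.6% with AGATAA (11.9% and 26.9%).

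Without either replicate in turn, the CpG-dense share was 17.2% to 19.1%, the noncoding start share 14.9% to 16.7%, the share with another within 50 kb 20.9% to 24.6%, with AGATAA 31.7% to 37.4% and with the CTG arrangement 4.74% (without replicate 2) to 7.53% (without replicate 1). Of 152 values over 12 results, 23 could not move (the q-value limit removed no region, and the mitochondrial share was 0 throughout), and 84 of the rest stayed within their limits (1.5 times for counts, the counting interval for shares and medians). The GATA results were chosen once the data had been seen, as was a further distance of more than 10 kb from RefSeq mRNA starts (771 regions). The causes of these shifts were not tested. No paired analysis was possible because 1 group was measured. Stacks of 73 reads or more and 2 libraries limit what the replicate lean can show.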
